A study of Mus musculus with 40 samples.

Results

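The 40 genes described here encode the secreted Wnt ligands, their Frizzled receptors with the coreceptors Lrp5 and Lrp6, and the secreted inhibitors of the Sfrp, Dkk and Wif families. They are every gene whose symbol in the deposited gene table consists of Wnt, Fzd, Sfrp or Dkk and a number, with a letter after it for some ligands, and also Wif1, Lrp5 and Lrp6. They are 40 of the 29411 symbols there and comprise 19 ligands, 10 Frizzled receptors, 2 coreceptors and 9 secreted inhibitors. The arrays carried 55 probes for them, and 14 genes had more than 1 probe. Each gene was read from the probe with the highest mean log2 intensity over the 38 arrays used.

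The study followed C57BL/6J mice, weaned at the age of 3-4 weeks, on 5 diets, and the arrays measured RNA of cells from their subcutaneous fat, named in the labels both stromal vascular cells (SVCs) and infiltrating macrophages. LFC mice ate a low-fat diet, HFC mice a high-fat diet with more sucrose, and HF5, HF20 and HF75 mice the HFC diet with 5, 20 or 75 µg of Kal-1, an aqueous botanical formulation. For LFC and for HFC there are 11 arrays, labelled day 1, 6, 10 and 14 and week 0, 3, 6, 9, 12, 15 and 18. HF5 had 6 arrays, from week 3 to week 18, and HF20 and HF75 had 5 each, from week 3 to week 15. Each diet had 1 array at each label, although the series description speaks of 3 biological replicates, and how many mice went into 1 array is not given. Weeks are counted from day 14, so the labels day 14 and week 0 both stand for 14 days on diet, a time at which LFC and HFC have 2 arrays each. A diet was compared with another by pairing the arrays of the same label, and the comparisons of HF5, HF20 and HF75 with HFC share their HFC arrays. The other 2 of the 40 arrays carry the name HF20 in one label and HF75 in another, both at week 18, and entered no comparison.

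Wnt proteins are lipid-modified signals that act over short distances by binding Frizzled receptors. With Lrp5 or Lrp6 in the complex they keep β-catenin from being degraded, so that it enters the nucleus and acts with Tcf and Lef factors, while other branches of the pathway steer cell polarity and calcium. Sfrp proteins and Wif1 hold the ligands outside the cell and Dkk proteins block the coreceptors, and in fat tissue the β-catenin branch is known for restraining the step from precursor cell to adipocyte.

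Levels are given as the log2 intensity of the probe minus the log2 of the 75th percentile of the same array, so a level of 0 lies at that percentile. Levels of different probes cannot be ranked against each other, and each gene is compared only with itself across arrays. A probe counted as measured on an array where the scanner software marked it well above background. Signals below the lowest such level of an array were raised to it, and spots marked as outliers were dropped.

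Several arrays stood apart before any comparison. The LFC array of week 3 was dim, with a 75th percentile of 7.86 intensity units, 17.2% of probes well above background and only 6 of the 40 genes measured. The LFC array of day 14 had 9104 outlier spots, and 9 of the 40 genes were dropped from it. The median rank correlation of these arrays with the others was 0.443 and 0.458, against 0.832 to 0.941 for the remaining 36, which had 53.5% to 87.2% of probes well above background. On the LFC array of week 18, the list means were extreme. They were the lowest of all arrays for the fibroblast list (-3.49), the adipocyte list (-5.67), the endothelial list (-4.24) and the mural cell list (-5.60), and the highest of all for the erythroid list (5.26). On it 12 of the 40 genes were measured. On the HF5 array of week 3, the endothelial list stood at -2.17 and the mural cell list at -1.49, and 15 genes were measured.

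The labelled cell type was checked against lists of marker genes. All 9 fibroblast genes, all 7 endothelial, all 6 mural cell and all 8 macrophage genes were measured on at least 19 arrays, with median list means over the arrays of 4.03, 2.05, 3.47 and 0.58. Stromal vascular cells are the fraction without mature adipocytes, yet all 8 adipocyte genes were measured too. The mean of the adipocyte list had a median of 1.87 and was above 4, a bound set after the values were seen, on 10 arrays, where it ran from 4.49 to 5.95. These were the HFC array of day 1, both arrays of day 6, those of week 9 other than HF75, the LFC and HF20 arrays of week 12 and the HF20 array of week 15. The epithelial list had a median of -1.79 and was highest on the LFC array of week 6 (3.27). The medians of the remaining lists were -1.03 for T cells, -2.39 for B cells, -2.93 for 4 of 5 genes of lymph node stroma, 1.11 for skeletal muscle, 0.57 for Schwann cells and 1.13 for erythroid cells. No gene found of any list was below background on every array.

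The list means were not the same in the diets that are compared below. Over weeks 3 to 15 the macrophage list averaged 0.51 in HF20 and 0.41 in HF75, against 1.22 in HFC, and over weeks 3 to 18 it averaged 0.92 in HF5, against 1.16. Over these 6 weeks the epithelial list of HF5 averaged -0.83 and its Schwann cell list -0.37, against -2.42 and 0.50 in HFC. The adipocyte list averaged 3.44 in HF20, 1.64 in HF75 and 1.5 in HFC over weeks 3 to 15. In HF20 the T cell list stood at -2.03 and the Schwann cell list at -0.80, against -0.67 and 0.35 in HFC, and in HF75 the epithelial list stood at -1.02, against -2.39. The erythroid list of HF75 stood at 0.26 and its skeletal muscle list at 1.16, against 1.25 and 0.21 in HFC. Over the labels of LFC and HFC other than week 18, the mural cell list averaged 2.88 in LFC and 3.68 in HFC, the endothelial list 1.92 and 2.46, the Schwann cell list -0.02 and 0.48 and the epithelial list -1.01 and -2.24. With week 18 the first 3 of these stood further apart, at 2.11 and 3.66, 1.36 and 2.45 and -0.46 and 0.55, and the epithelial list at -1.28 and -2.27. The skeletal muscle list averaged 1.51 in LFC and 0.86 in HFC without week 18, and 0.94 and 1.00 with it. Lymph node stroma averaged -2.19 and -2.78 without week 18, and -2.33 and -2.70 with it. The LFC means also include the dim array of week 3 and rest there in part on levels below background. On it the mural cell list stood at 1.52 with 2 of 6 genes measured and the epithelial list at 0.81 with 1 of 6. Lymph node stroma stood at 0.76 with 1 of 4. The part of these lists in any difference given below was not tested.

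Of the 40 genes, 31 were measured on at least 19 of the 38 arrays. Lrp5 and Lrp6 were measured on all 38, and Fzd1, Fzd4, Fzd7, Sfrp4, Wnt5b and Wnt11 on 37 each. The 9 genes below that bound were 7 ligands and 2 Dkk inhibitors. Dkk1 and Wnt2b were measured on 9 arrays each, Wnt3, Wnt8b and Wnt16 on 6 each, Dkk4, Wnt7a and Wnt8a on 4 each and Wnt3a on 1. All these counts of arrays include spots marked well above background that were then dropped as outliers and gave no level. For Wnt11 this holds on the LFC array of day 14 and for Sfrp4 on the HF20 array of week 3. None of the 40 genes was saturated on an array. The heat map of all 40 genes shows which arrays lacked them, with the LFC arrays of week 3 and week 18 and the HF5 array of week 3 as the emptiest columns.

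**Figure D1:**
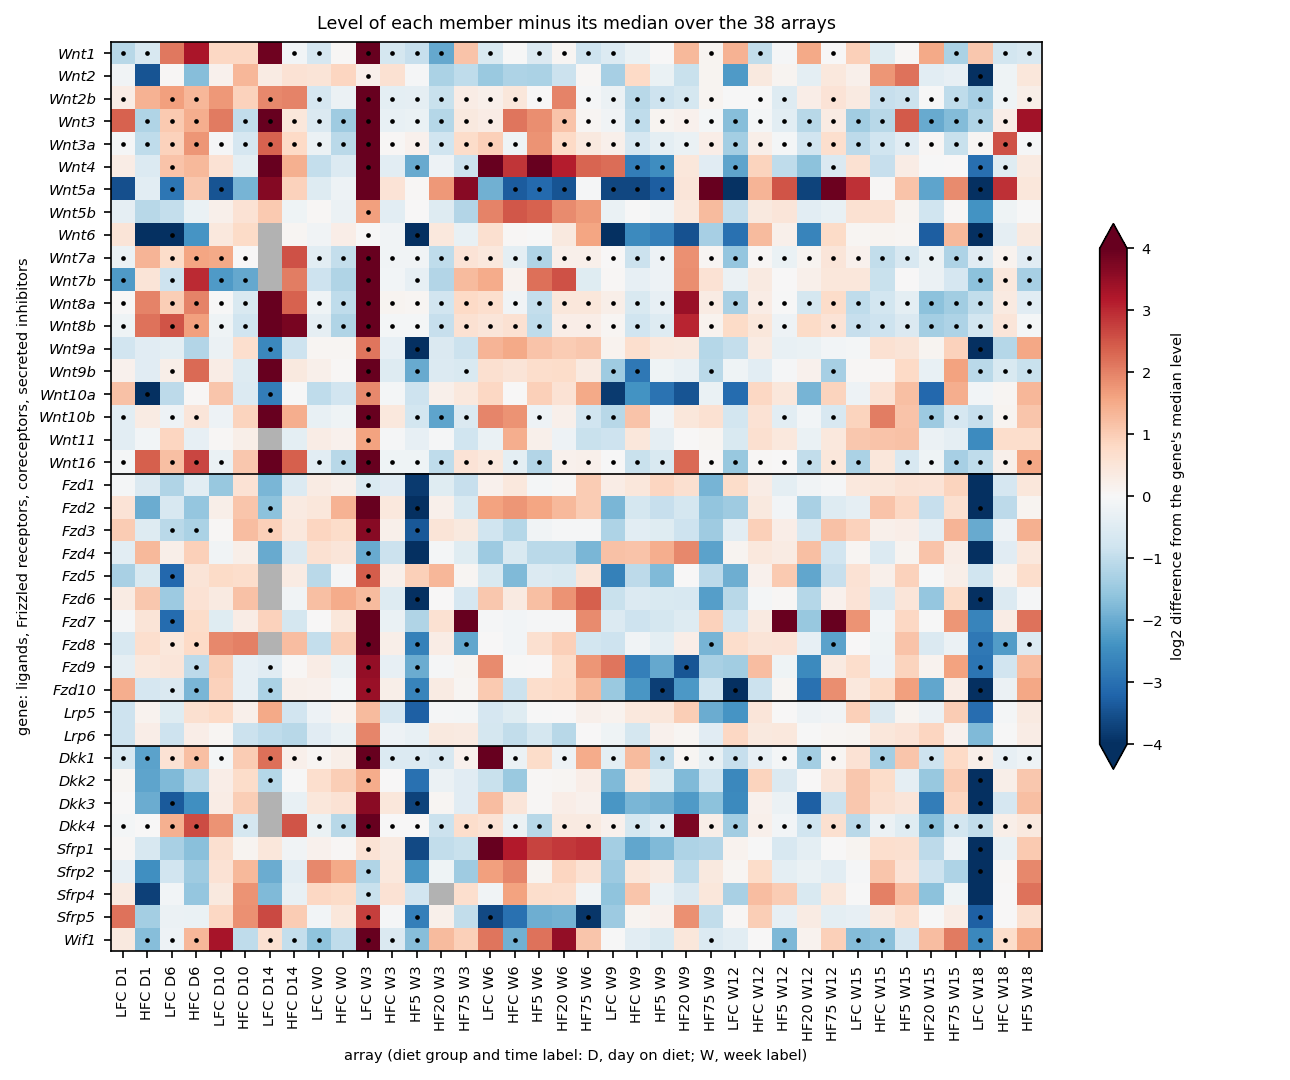
Level of each of the 40 genes (vertical axis, by role) on the 38 arrays (horizontal axis), drawn as the log2 difference from the median of that gene, with black dots for genes not well above background and grey cells for dropped spots. Sfrp1 was high on the 5 arrays of week 6, and Fzd7 had levels of 3.46 and 3.16 on the HF75 arrays of weeks 3 and 12.

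In limma, 0 of the 40 genes passed an adjusted p of 0.05 in any of the 7 comparisons. HFC against LFC, the effect of the high-fat diet, tested 30 of them, and 0 passed, beside 0% of all genes tested. At an unadjusted p under 0.05 the counts there were 0 of 30 and 2.92% of all genes. With array weights in the fit they were 8 of 30 and 6.13%. HF5 against HFC tested 32 with 0 passing, beside 0% of all genes, and 1 of 32 reached the unadjusted bound, beside 5.11%. HF20 against HFC tested 31 with 0 passing, beside 0% of all genes, and 7 of 31 reached the unadjusted bound, beside 11.4%. HF75 against HFC was the comparison in which other genes passed: 227 of 20658, or 1.1%, and 0 of the 31 genes tested here. Without week 3, 6, 9, 12 or 15 the count of all genes was 0, 5, 147, 72 or 27. In HF75 11 of 31 reached the unadjusted bound, beside 14.4% of all genes.

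The comparisons in time also gave 0 calls in limma. Late (weeks 3 to 18) against early arrays (days 1 to 14 and week 0) of LFC and HFC tested 31 of the genes, 0 passed beside 0% of all genes, and 0 reached the unadjusted bound, beside 3.11%. The difference between HFC and LFC in that contrast tested 30, 0 passed beside 0%, and 2 reached the unadjusted bound, beside 4.92%. The last comparison set 4 arrays of week 9, whose titles carry the unexplained letters WS, against weeks 6 and 12 of the same diets. It tested 31, 0 passed beside 0%, and 7 reached the unadjusted bound, beside 14.2%.

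The median log2 difference of the genes tested stood beside that of all genes as follows. It was 0.17 beside -0.01 for HFC against LFC, -0.20 beside -0.01 for HF5 against HFC and -0.41 beside 0.08 for HF20 against HFC. For HF75 against HFC it was -0.01 beside 0.02, and for late against early -0.02 beside 0.02. For the difference between diets in time it was 0.46 beside -0.53, and for week 9 it was -0.62 beside 0.03. Leaving out 1 time label in turn, they ran from -0.06 (without week 18) to 0.58 (without week 3) for HFC against LFC, from -0.38 (without week 18) to 0.24 (without week 3) for HF5, from -0.44 (without week 6) to 0.11 (without week 12) for HF20 and from -0.22 (without week 6) to 0.17 (without week 9) for HF75. They ran from -0.48 (without week 3) to 0.28 (without week 18) for late against early and from -0.21 (without week 18) to 1.04 (without week 3) for the difference between diets in time. For HFC against LFC, the median of all genes was -0.06 without week 18 and 0.13 without week 3. For the difference between diets in time, that of all genes was -0.64 without week 18 and -0.28 without week 3. With 1 diet left out in turn, the week 9 median ran from -0.84 (without HF20) to -0.50 (without HF5). For 6 of the 7 comparisons, all but week 9, the range included both signs. On only the 4 labels whose LFC and HFC arrays share a slide, the HFC against LFC median was -0.35, beside -0.33 for all genes. Without day 14, week 3 and week 18, chosen after the data were seen, it was 0.37 beside 0.07. The difference between diets in time then gave 0.16 beside -0.23. A filter on measured genes stands before each of these medians, so they describe the genes tested and not all 40.

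Among the ligands, Wnt10b, known as a brake on fat cell formation, was lower in the Kal-1 groups than in HFC at nearly every week. Its HFC levels at weeks 3, 6, 9, 12 and 15 were -5.36, -3.98, -4.64, -5.20 and -3.74, measured on all 5 arrays. The HF20 levels were -7.90, -5.57, -5.33, -5.88 and -7.24, with 3 of 5 arrays measured, and the HF75 levels were -6.35, -6.57, -5.17, -6.42 and -6.44, with only week 9 measured. Each HF20 and HF75 array lay below the HFC array of its own week, while the group ranges overlapped through week 9 of either Kal-1 group. The log2 difference was -1.80 for HF20 (95% interval -2.94 to -0.66, adjusted p = 0.416, lower in 5 of 5 pairs) and -1.61 for HF75 (-2.54 to -0.67, adjusted p = 0.135). In HF75 the gene entered the test through the HFC arrays alone, so that difference rests in part on the filter and on levels below background, of which those of weeks 3 and 12 are raised levels. HF5 differed from HFC by -0.88 (-1.73 to -0.03, adjusted p = 0.957, lower in 5 of 6 pairs). Arrays that did not measure the gene enter all 3 differences with the level read there, or with the raised level where the reading was lower.

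Wnt11, a ligand of the branches without β-catenin, lay between -2.52 and -0.19 on the 35 arrays other than the LFC arrays of day 14, week 3 and week 18. Its HFC levels of weeks 3 to 15 were -1.67, -0.19, -1.17, -1.01 and -0.48 and its HF75 levels -2.42, -2.52, -1.54, -1.22 and -2.0. HF75 was below HFC at every week and the ranges overlapped, with a difference of -1.04 (-1.90 to -0.17, adjusted p = 0.263, lower in 5 of 5 pairs). HF20 levels were -1.67, -1.83, -1.63, -1.91 and -1.88, and the difference from HFC was -0.88 (-1.61 to -0.15, adjusted p = 0.416, lower in 4 of 5 pairs). At week 3 the HF20 and HFC levels were the same to 2 decimals.

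Wnt2, a ligand of the β-catenin branch, was measured on all 35 of those arrays, from -3.67 to 1.94 with a median of -0.26. HF20 levels were -1.49, -1.07, -1.11, -0.61 and -0.64, against 0.37, -1.47, 0.56, 0.15 and 1.54 in HFC, so that HFC was higher except at week 6 and the ranges overlapped. The difference was -1.22 (-2.22 to -0.21, adjusted p = 0.416, lower in 4 of 5 pairs). Between HFC and LFC the gene differed by 1.03 (-0.56 to 2.62, adjusted p = 0.944), and by 0.37 (without week 18) to 1.46 (without day 1) with 1 label left out in turn.

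Wnt2 was also 1 of 2 genes whose HFC and LFC levels stood further apart late than early at the unadjusted bound. At days 1, 6, 10 and 14 and week 0 its LFC levels were -0.38, -0.20, -0.06, 0.09 and 0.29 and its HFC levels -3.67, -1.94, 1.09, 0.34 and 0.65. In the late arrays the LFC levels were -0.03, -1.72, -1.55, -2.50, -0.02 and -8.02 and the HFC levels 0.37, -1.47, 0.56, 0.15, 1.54 and -0.39. HFC lay above LFC at 6 of 6 late times and 3 of 5 early times, and the LFC arrays of weeks 3 and 18 did not measure the gene. The late difference exceeded the early by 3.09 (0.33 to 5.85, adjusted p = 0.742), and by 2.05 (without week 18) to 3.54 (without day 10) with 1 label left out in turn. The HFC arrays of days 1 and 6 and the LFC arrays of weeks 9 and 12 are among the 10 with a high adipocyte list, as are those of LFC at day 6 and HFC at week 9. The adipocyte list averaged 2.79 in LFC and 3.43 in HFC early and 0.93 and 1.61 late, or 2.25 and 1.5 without week 18. The T cell list averaged 0.22 and -1.55 early and -1.98 and -0.33 late, and the fibroblast list 3.80 and 3.75 early and 2.68 and 4.40 late, or 3.92 and 4.46 without week 18. The late LFC means include the dim array of week 3, which measured 2 of 8 adipocyte, 1 of 5 T cell and 6 of 9 fibroblast genes. The part of these lists was not tested.

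Wnt5a, the best-known ligand of the polarity branch, had the largest difference of the genes tested in a Kal-1 comparison, through a probe of doubtful identity. Its HF75 levels were 0.39, -3.27, 1.02, 0.68 and -1.34, against -2.70, -6.56, -6.88, -1.86 and -3.20 in HFC, where weeks 6 and 9 were below background. HF75 was above HFC at every week, and the ranges overlapped through week 6 of HF75. The difference was 3.74 (1.74 to 5.74, adjusted p = 0.109, higher in 5 of 5 pairs). The deposited gene table names this probe Wnt5a and describes its transcript as the predicted gene Gm2670. Its accession matched no gene of the reference table, whereas the other 54 of the 55 probes matched their symbol. The other Wnt5a probe, which matched, was measured on 1 of 5 HF75 and 2 of 5 HFC arrays of these weeks, too few to be tested. The levels given under Wnt5a are therefore those of this probe and not established as those of the gene.

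Wnt6 and Wnt10a, ligands encoded side by side on chromosome 1, were low on many of the same arrays. On the 10 arrays with an adipocyte list mean above 4, Wnt6 lay between -4.21 and -2.40 and Wnt10a between -7.15 and -1.92. On the other 25 of the 35 arrays, Wnt6 had a median of 0.18 and a range from -5.22 to 1.55, and Wnt10a had a median of -1.51 and a range from -3.00 to -0.44. The ranges overlapped, for Wnt6 only through the HF5 array of week 3, which did not measure it. The same 10 and 25 arrays also stood apart in other lists, with medians of -4.75 and -1.0 for the epithelial list, -1.29 and 1.41 for Schwann cells, -3.66 and -0.36 for B cells, -2.74 and -0.40 for T cells and -4.59 and -1.89 for lymph node stroma, so the split is not one of the adipocyte list alone. Fewer cells of a type and less RNA per cell cannot be told apart in such bulk samples.

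At week 9 the WS arrays of LFC, HFC, HF5 and HF20 had Wnt6 levels of -4.15, -2.58, -2.77 and -3.51. The same diets stood at 0.61, 0.03, -0.04 and 0.36 at week 6 and at -3.02, 1.23, 0.18 and -2.67 at week 12. In each diet the WS array lay below both of its references, and the ranges overlapped through week 12. Wnt10a gave -5.80, -4.36, -4.92 and -5.43 at week 9, -1.16, -1.97, -1.03 and -1.40 at week 6 and -5.04, -1.15, -1.51 and -3.84 at week 12, with the same order and overlap. The differences from weeks 6 and 12 were -2.84 for Wnt6 (-4.47 to -1.21) and -2.99 for Wnt10a (-4.57 to -1.42), each with an adjusted p of 0.347. The HF75 array of week 9, whose title lacks the letters, stood at -1.36 and -2.23. The adipocyte list means of the WS arrays were 5.02, 4.77, 4.98 and 5.07, those of LFC and HF20 at week 12 were 4.87 and 5.51, and the other reference arrays lay between -0.75 and 1.99. The epithelial list mean was between -5.70 and -3.77 on the WS arrays. The part of either list in the Wnt6 and Wnt10a levels was not tested, and week 9, the title letters, the scan day and the slides cannot be told apart, since the WS arrays were scanned on 1 day and on slides that held no other array. Late and early arrays shared no scan day or slide either.

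**Figure D2:**
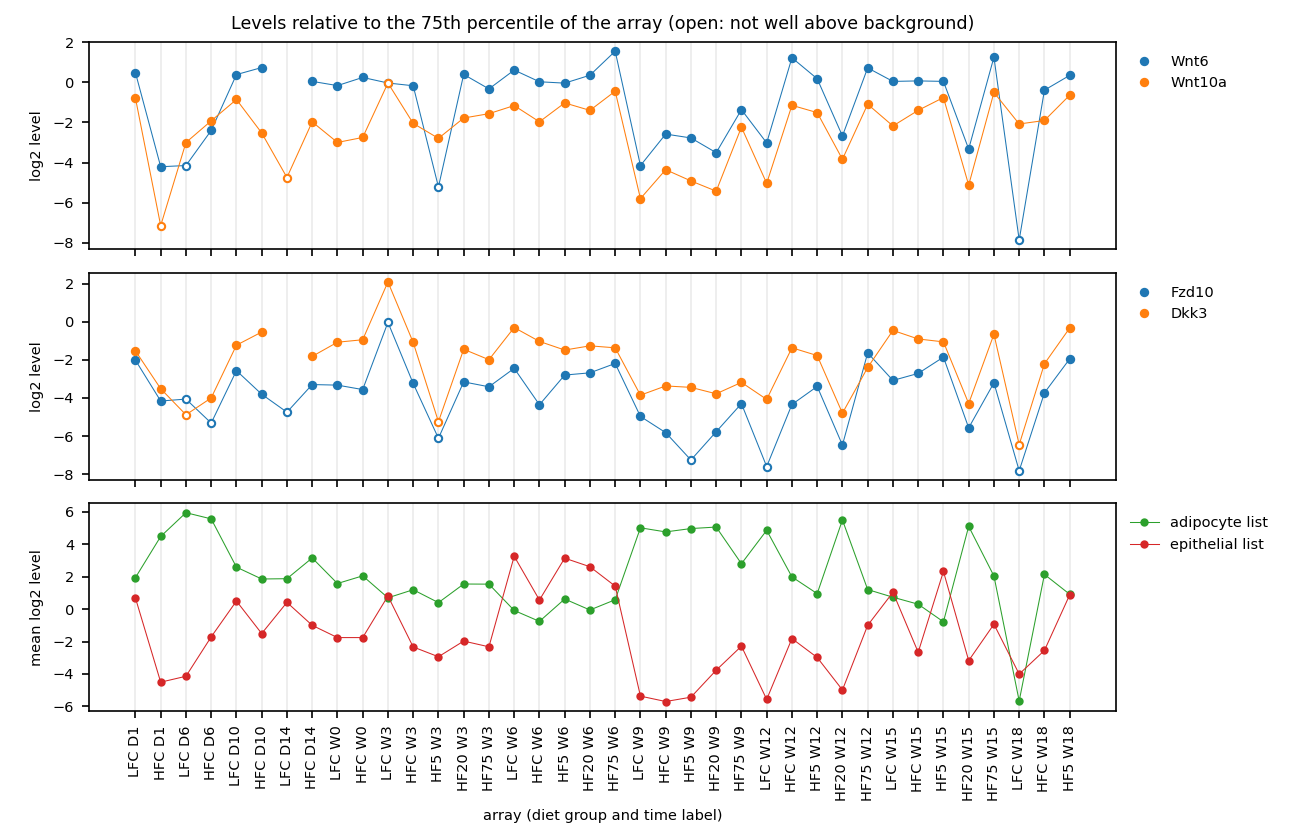
Levels of Wnt6, Wnt10a, Fzd10 and Dkk3 and mean levels of the adipocyte and epithelial lists on the 38 arrays, all on a log2 scale, with open circles for values not well above background. The 4 genes were low on the WS arrays of week 9, where the adipocyte list means were 4.77 to 5.07.

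In HF20 the neighbours differed from HFC by -1.47 (Wnt6, -3.31 to 0.37, adjusted p = 0.417, lower in 3 of 5 pairs) and -1.33 (Wnt10a, -2.99 to 0.33, adjusted p = 0.417, lower in 3 of 5 pairs), with both genes above HFC at weeks 3 and 6. Without week 12 the Wnt6 difference was -0.86, and without week 15 that of Wnt10a was -0.73. HF20 is the group whose arrays of weeks 9, 12 and 15 were among the 10 with a high adipocyte list. Wnt10a differed by 1.02 in HF75 (0.19 to 1.84, adjusted p = 0.256, higher in 5 of 5 pairs), from levels of -1.56, -0.44, -2.23, -1.09 and -0.50 against -2.05, -1.97, -4.36, -1.15 and -1.40 in HFC. The ranges overlapped. The epithelial list means of these weeks were -2.32, 1.42, -2.28, -1.0 and -0.93 in HF75 and -2.33, 0.56, -5.70, -1.82 and -2.66 in HFC, and their part was not tested.

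Most of the remaining ligands were near background on part of the arrays. Wnt9b was measured on 26 of the 35 arrays, between -5.41 and -2.59 where measured, and on 2 of the 4 WS arrays. Its WS levels were -6.29, -7.73, -5.04 and -5.17, against -4.23, -4.33, -4.16 and -4.14 at week 6 and -5.05, -5.29, -4.90 and -4.69 at week 12, a difference of -1.46 (-2.40 to -0.52, adjusted p = 0.347) with overlapping ranges. Wnt4, Wnt7b and Wnt1 were measured on 27, 28 and 17 of the 35, with medians where measured of -4.70, -4.79 and -5.03. Wnt5b and Wnt9a, measured on 35 and 34, had medians of -1.70 and -2.10. In the 3 Kal-1 comparisons the differences ran from -0.50 to -0.02 for Wnt5b, from -0.58 to -0.40 for Wnt9a, from 0.03 to 0.43 for Wnt4, from 0.13 to 0.81 for Wnt7b, from 0.18 to 0.97 for Wnt1 and from 0.37 to 0.59 for Wnt9b. Between HFC and LFC these 6 genes differed by -1.18 (Wnt1) to 0.64 (Wnt9a), and by -1.53 (Wnt4 without week 12) to 0.95 (Wnt9a without week 3) with 1 label left out in turn. Without week 3, whose LFC array measured none of them, Wnt1, Wnt4 and Wnt9b went from -1.18, -1.12 and -0.91 to -0.64, -0.69 and -0.47. Without week 18 Wnt9a went to 0.24. With 1 week left out in turn, the Kal-1 differences of the 6 genes ran from -1.01 (Wnt9a in HF5) to 1.54 (Wnt1 in HF20), and the other Wnt5b probe gave -0.31 to 0.15. Of the dim ligands, Wnt3 entered the HF5 comparison and Wnt2b the late comparison.

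Among the receptors, Fzd7, a receptor of both main branches that is known from precursor cells of several tissues, gave the lowest adjusted p of the 40 genes. Its HF75 levels were 3.46, 0.62, -0.33, 3.16 and 0.51 at weeks 3, 6, 9, 12 and 15. The HFC levels of the same weeks were -1.52, -1.36, -2.09, -0.88 and -1.38, and the HF20 levels were -0.63, -1.31, -1.75, -2.76 and -1.26. Every HF75 array lay above every HFC and HF20 array of weeks 3 to 15, with weeks 3 and 12 of HF75 highest. HF5 stood at -2.44, -1.29, -1.96, 2.69, -0.42 and 0.91 from week 3 to week 18 and so reached the HF75 range at weeks 12 and 18. The difference of HF75 from HFC was 2.93 (1.64 to 4.23, adjusted p = 0.0722, higher in 5 of 5 pairs). For HF5 it was 0.95, and 1.32 without week 3 or 0.42 without week 12. For HF20 it was -0.10, with both signs when 1 week was left out in turn.

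The other Fzd7 probe was measured on 27 arrays, 2 of 5 in HF75 and 5 of 5 in HFC at these weeks. Its mean was -5.70 in HF75 and -4.75 in HFC, a difference of -0.95. The HF75 levels of weeks 9 and 12 are raised levels there, so that difference rests in part on levels below background. The accessions of both probes matched Fzd7, and the beginnings of the 2 probes are printed here with those of Wnt5a because the 2 probes of each gene gave different levels. Each line holds 30 of 60 bases, in the order of the probe file.
Fzd7, probe used: aagggaaggtgaacttcaaagtgattctgg
Fzd7, other probe: agccccgactttacagtcttcatgatcaag
Wnt5a, probe used: agccccaagagagagtgagaaatcaaagat
Wnt5a, other probe: caatgaagcaggccgtaggacagtatacaa

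**Figure D3:**
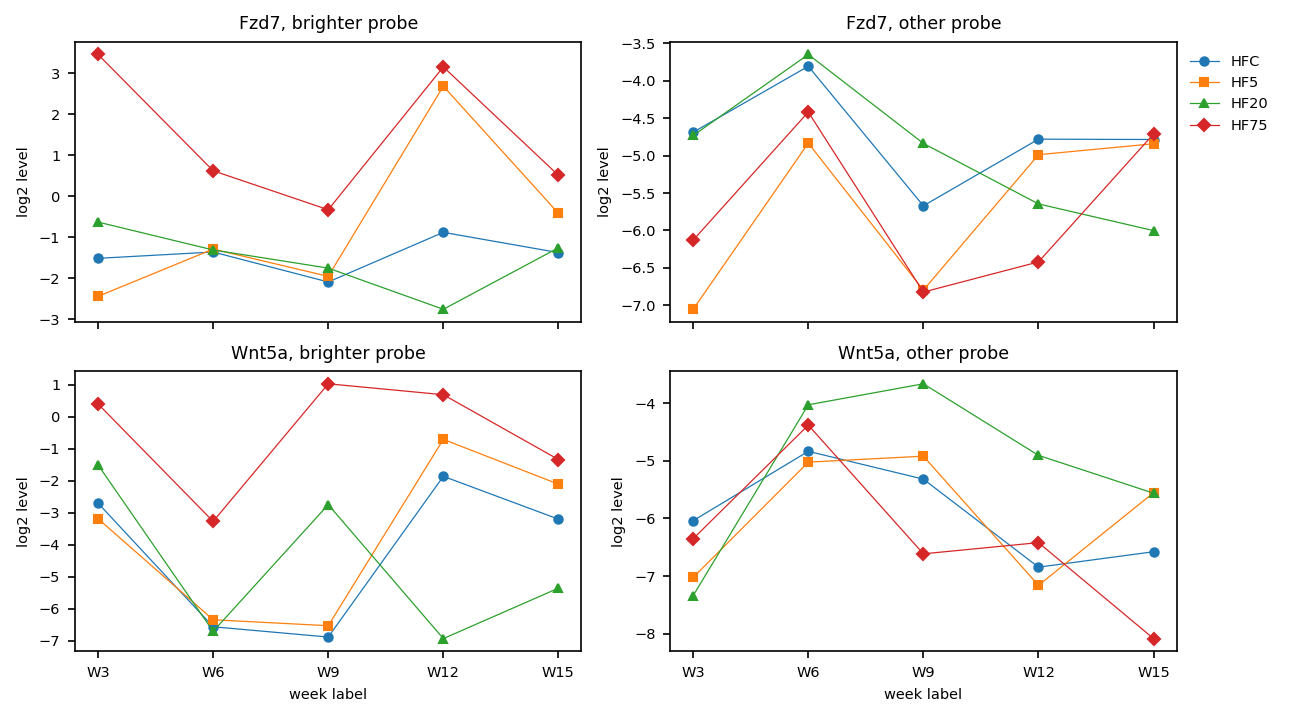
Log2 levels of the 2 probes of Fzd7 and of Wnt5a at weeks 3 to 15 in HFC, HF5, HF20 and HF75, values at or below background included. The brighter probes were higher in HF75 than in HFC at all 5 weeks, while the other probe was well above background on 2 (Fzd7) and 1 (Wnt5a) of the 5 HF75 arrays.

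No HF75 array shared a slide with the HFC array of its week, and only at weeks 12 and 15 were both scanned on the same day. At these weeks alone, a choice made after the data were seen, the differences were 2.96 for Fzd7, 2.20 for Wnt5a and -1.96 for Wnt10b, with 0 of the 33 genes tested passing in limma and 4 reaching the unadjusted bound, beside 0% and 5.27% of all genes. Slide and diet cannot be told apart in the HF75 and HF20 comparisons. With array weights in the fit, 6 of the 31 genes passed in HF75, Fzd7, Wnt5a and Wif1 with a higher and Sfrp2, Fzd2 and Wnt10b with a lower level, beside 1227 of 20658 genes tested, or 5.94%. Of the 6, Wnt10b entered the test through the HFC arrays alone and Wif1 through the HF75 arrays alone. The calls of Wnt10b and Wif1 therefore rest in part on the filter and on levels below background. With normexp background correction Fzd7 alone passed (2.34), beside 0.997% of all genes, and without week 9 Wnt5a alone (2.70), beside 0.692%.

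Fzd2 and Fzd8, receptors of the ligands in both branches, had lower levels in HF75. Fzd2 gave -1.69, -0.05, -2.66, -1.59 and -0.44 in HF75 and -0.65, 0.70, -1.77, -0.68 and 0.07 in HFC. The ranges overlapped, and the difference was -0.82 (-1.33 to -0.31, adjusted p = 0.163, lower in 5 of 5 pairs). The other Fzd2 probe gave -0.24. In HF20 and HF5 the Fzd2 differences from HFC were -0.89 and -0.85, and the other probe gave -0.88 and -0.56. The HF5 array of week 3 did not measure Fzd2 with the probe used. Without week 3 the HF5 difference of that probe was -0.005, and without week 18 it was -1.25. Fzd8 had HF75 levels of -6.35, -5.01, -6.13, -6.42 and -4.50, measured on 2 of 5 arrays, and HFC levels of -4.02, -4.39, -4.41, -3.74 and -4.45, measured on 5 of 5. The groups did not overlap, and the difference was -1.48 (-2.51 to -0.45, adjusted p = 0.207). The gene entered the test through the HFC arrays alone, and the HF75 levels of weeks 3 and 12 are raised levels, so the separation and the size rest in part on the filter and on levels below background.

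Fzd4, known as the receptor for Norrin in blood vessels as well as for Wnt ligands, was high on arrays with a high adipocyte list. The WS arrays of week 9 stood at 3.48, 3.45, 3.77 and 4.23 for LFC, HFC, HF5 and HF20. At week 6 these diets stood at 0.86, 1.69, 1.23 and 1.24 and at week 12 at 2.42, 2.71, 2.64 and 3.5. The ranges overlapped through HF20 of week 12, and the difference was 1.69 (0.57 to 2.82, adjusted p = 0.347). On the 10 arrays with an adipocyte list mean above 4, Fzd4 had a median of 3.47, against 1.85 on the other 25, and the part of this and the other lists was not tested. Between HFC and LFC it differed by 1.15 (-0.06 to 2.36, adjusted p = 0.944), and by 0.58 (without week 18) to 1.33 (without week 15) with 1 label left out in turn.

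Fzd10 was low on many of the arrays on which Wnt6 and Wnt10a were low. On the 10 arrays with a high adipocyte list its median was -5.67, against -3.20 on the other 25. It was measured on 6 of the 10 and 24 of the 25, so the median of the 10 rests in part on levels below background, and the part of any list was not tested. At week 9 it differed by -1.69, and by -0.87 without HF5, whose WS array did not measure it. Fzd9 differed by -1.48 at week 9, and by -0.86 without HFC. Fzd1, Fzd3, Fzd5 and Fzd6 were measured on 35, 32, 34 and 34 of the 35 arrays and had medians of 0.98, -3.56, -2.40 and -1.27. Their differences in the 3 Kal-1 comparisons ran from -0.48 to -0.11 for Fzd1, from -0.27 to 0.32 for Fzd3, from 0.16 to 0.57 for Fzd5 and from -0.42 to 0.36 for Fzd6. For Fzd9 and Fzd10 they ran from -0.62 to 0.91 and from -0.64 to 1.15. Between HFC and LFC these 6 receptors differed by -0.80 (Fzd9) to 0.70 (Fzd1), and by -1.14 (Fzd9 without week 12) to 0.95 (Fzd5 without week 3) with 1 label left out in turn. Fzd9 went to -0.39 without week 9, and Fzd1 to 0.37 without week 18. With 1 week left out in turn, the Kal-1 differences of the 6 receptors ran from -1.21 (Fzd10 in HF20) to 1.55 (Fzd10 in HF75). The other probes tested gave -0.45 to 0.40 for Fzd5, -0.07 to 0.09 for Fzd3 and 0.25 to 0.80 for Fzd10 in these comparisons.

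The coreceptors were measured on every array. Lrp6 lay between 1.64 and 3.63 on the 35 arrays, and its differences in the Kal-1 comparisons ran from 0.24 to 0.26. The other Lrp6 probe gave -0.23 to 0.01 there. Lrp5 had a median of 0.90 and was lowest on the HF5 array of week 3 (-2.36). At week 9 its WS levels were 1.05, 1.32, 1.35 and 1.88, against 0.22, 0.42, 0.90 and 0.90 at week 6 and -1.46, 1.39, 0.90 and 0.70 at week 12. The ranges overlapped through HFC of week 12, and the difference was 0.90 (0.08 to 1.73, adjusted p = 0.347). The other Lrp5 probe gave 0.93.

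Of the inhibitors, Sfrp2 was lower in HF20 and HF75 than in HFC at every week. Its HFC levels were 1.60, 3.10, 1.63, 1.91 and 2.28. HF20 gave 0.98, 2.04, 0.15, 0.91 and 0.34, and HF75 gave -0.26, 1.73, 1.56, 0.76 and -0.09. The ranges overlapped through week 6 of either Kal-1 group. The differences were -1.22 for HF20 (-1.84 to -0.60, adjusted p = 0.416, lower in 5 of 5 pairs) and -1.36 for HF75 (-2.21 to -0.51, adjusted p = 0.162, lower in 5 of 5 pairs). HF5 differed by -0.76, and by -0.36 without week 3 or -1.28 without week 18. The adipocyte list means of weeks 3 to 15 were 1.55, -0.05, 5.07, 5.51 and 5.11 in HF20 and 1.20, -0.75, 4.77, 1.99 and 0.31 in HFC. On the 10 arrays with a high adipocyte list Sfrp2 had a median of 0.36, against 1.60 on the other 25. The fibroblast list averaged 3.81 in HF20, 4.00 in HF75 and 4.46 in HFC, and the part of these and the other lists in the Sfrp2 levels was not tested.

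Sfrp4, a secreted binder of Wnt ligands, gave 1.54, 0.29, 0.26 and -0.78 in HF20 at weeks 6, 9, 12 and 15, the spot of week 3 being dropped as an outlier. HFC stood at 1.43, 2.47, 1.98, 2.11 and 2.88 and HF75 at 1.55, 0.73, 1.32, 1.32 and 0.68 from week 3 to week 15. Both Kal-1 ranges overlapped that of HFC, and HF75 was above HFC only at week 3. The differences were -2.04 for HF20 (-3.27 to -0.80, adjusted p = 0.416, lower in 4 of 4 pairs) and -1.06 for HF75 (-1.95 to -0.17, adjusted p = 0.268, lower in 4 of 5 pairs). On the 10 arrays with a high adipocyte list, 3 of them of HF20, Sfrp4 had a median of -0.08, against 1.48 on the other 25. Of these 25, the HF20 array of week 3, whose spot was dropped, gave no level to that median. The part of this and the other lists was not tested.

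Sfrp4 was the other gene whose late difference between HFC and LFC exceeded the early difference at the unadjusted bound. The LFC levels were 1.24, 0.77, 1.26, -0.91 and 1.70 early and -0.03, 0.72, -0.73, -0.42, 0.87 and -3.62 late. HFC had -2.86, -0.67, 2.65, 0.58 and 1.62 early and 1.43, 2.47, 1.98, 2.11, 2.88 and 0.87 late. HFC was above LFC at 6 of 6 late times and 2 of 5 early times, and LFC of week 3 was below background. The late difference exceeded the early by 3.05 (0.91 to 5.18, adjusted p = 0.742), and by 2.16 (without day 1) to 3.55 (without day 14) with 1 label left out in turn. The list means given for Wnt2 apply to the same arrays, and their part was not tested. Without day 14, week 3 and week 18, chosen after the data were seen, it was 3.31 for Sfrp4 and 2.53 for Wnt2.

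Wif1, which binds Wnt ligands directly, was near background in HFC, with levels of -5.94, -7.27, -5.76, -5.32 and -7.02 of which 2 of 5 were measured. HF20 gave -4.07, -1.84, -4.89, -5.23 and -4.10 and HF75 gave -4.39, -4.25, -5.91, -4.39 and -3.28. Every HF20 array lay above every HFC array of these weeks, and HF75 overlapped HFC through week 9. The differences were 2.24 for HF20 (0.40 to 4.08, adjusted p = 0.416) and 1.82 for HF75 (0.46 to 3.18, adjusted p = 0.235), and for HF20 1.44 without week 6. The gene entered both tests through the Kal-1 arrays alone, and 3 of the 5 HFC levels were below background, that of week 6 being a raised level, so the separation and the sizes rest in part on the filter and on such levels. With normexp background correction the HF20 difference had the opposite sign, -0.28.

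Dkk3, a Dkk protein without the coreceptor action of its relatives, had HF20 levels of -1.44, -1.26, -3.78, -4.80 and -4.29 and HFC levels of -1.09, -1.03, -3.37, -1.37 and -0.90. HF20 was lower at every week, the ranges overlapped, and the difference was -1.56 (-3.08 to -0.05, adjusted p = 0.416, lower in 5 of 5 pairs). The gap was wide at weeks 12 and 15, the weeks at which the adipocyte lists of HF20 and HFC differed most. On the 10 arrays with a high adipocyte list Dkk3 had a median of -3.93, against -1.26 on the other 25, and the part of this and the other lists was not tested. Sfrp5, known as a product of fat cells, had HF75 levels of -3.79, -6.69, -3.78, -3.20 and -2.51, with week 6 below background, and HFC levels of -2.85, -5.79, -2.69, -1.83 and -2.45. The ranges overlapped, and the difference was -0.87 (-1.5 to -0.24, adjusted p = 0.222, lower in 5 of 5 pairs).

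Sfrp1, a further ligand binder, separated week 6 from the other times. On the LFC, HFC, HF5, HF20 and HF75 arrays of week 6 it stood at 3.37, 2.55, 2.10, 2.21 and 2.32, and its next highest level on any of the 38 arrays was 0.42. Wnt5b was also highest at week 6, at 0.29, 0.82, 0.68, 0.20 and 0.02. The epithelial list means of these arrays were 3.27, 0.56, 3.15, 2.62 and 1.42. Their part was not tested, no comparison of week 6 with all other times was made, and week 6 cannot be told apart from its slides and scan days, which held no other array. At week 9 the WS levels of Sfrp1 were -1.97, -2.67, -2.39 and -1.85, below all of weeks 6 and 12, where week 12 stood at -0.47, -0.61, -1.25 and -1.01. The difference was -3.08 (-5.33 to -0.84, adjusted p = 0.347), and the other Sfrp1 probe was measured on 0 of the 4 WS arrays. Sfrp4 had WS levels of -0.73, 1.98, 0.62 and 0.29, against 0.72, 2.47, 1.58 and 1.54 at week 6 and -0.42, 2.11, 1.88 and 0.26 at week 12, overlapping and with a difference of -0.73 (-1.45 to 0.00, adjusted p = 0.347). Dkk2, measured on all 35 arrays with a median of -1.5, had differences from -0.80 to -0.01 in the Kal-1 comparisons, and its other probe had -1.11 to -0.76.

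**Figure D4:**
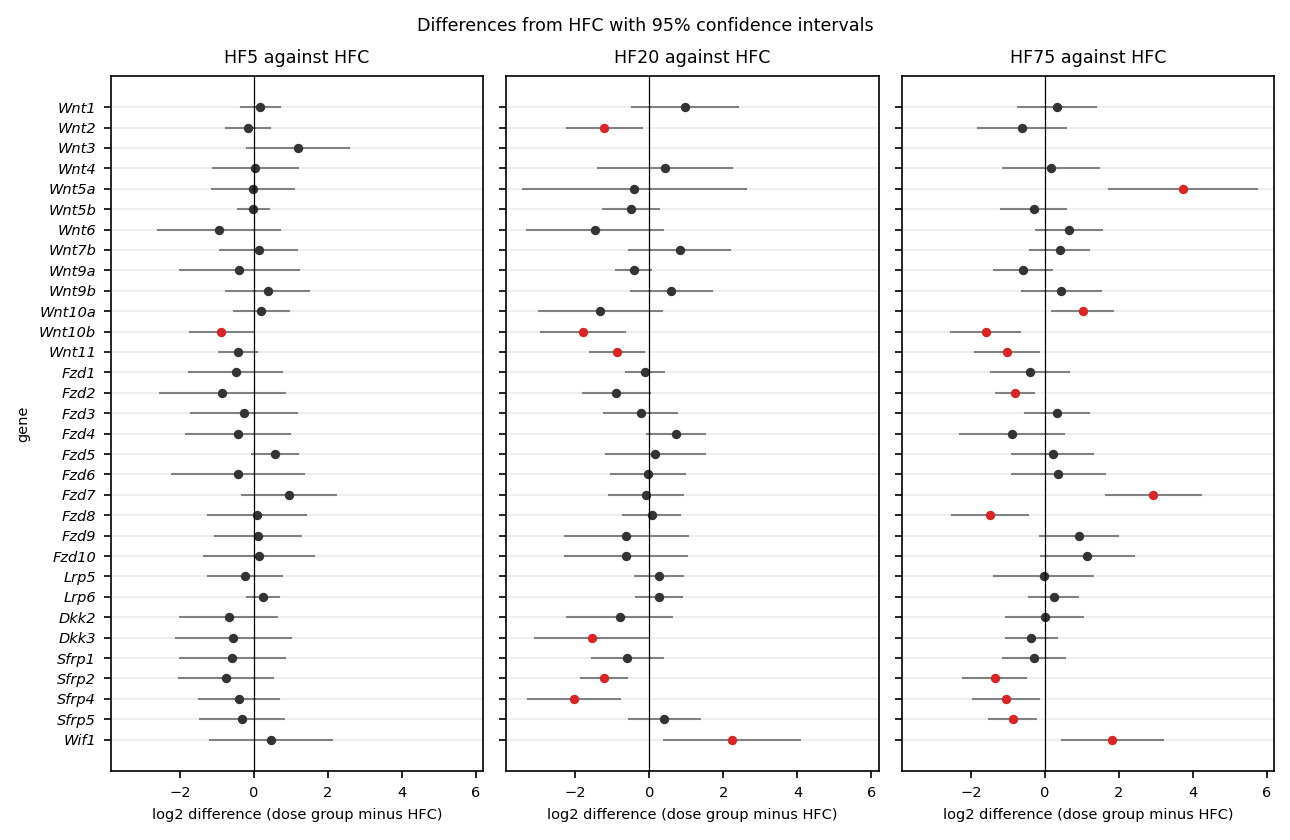
Log2 differences from HFC with 95% confidence intervals for the genes tested in HF5, HF20 and HF75, in red where the unadjusted p was under 0.05. Several genes lay below 0 in all 3 comparisons, which share HFC arrays, among them Sfrp2, Wnt10b, Fzd2, Wnt9a and Sfrp1. Fzd7 (2.93) and Wnt5a (3.74) had the highest differences in HF75, each read from 1 of its 2 probes.

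The week 9 comparison moved with the weights of the arrays. With array weights 15 of the 31 genes passed in it, 3 higher and 12 lower on the WS arrays, together with 8578 of 22250 genes tested, or 38.6%, 4251 higher and 4327 lower. The higher genes were Fzd4, Lrp5 and Sfrp5, and the lower ones included Wnt6, Wnt10a, Wnt9b, Wnt4, Sfrp1, Dkk3 and Fzd10.

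The wider pathway was read from 6 lists. In none of the 7 comparisons did a gene of these lists pass the adjusted threshold in limma. In HF75 against HFC, the unadjusted bound was reached by 2 of 4 genes tested for Wnt secretion and R-spondins, 1 of 10 other receptors, 3 of 7 other secreted inhibitors, 3 of 20 cytoplasmic transducers, 2 of 11 nuclear factors and 6 of 16 target genes, beside 14.4% of all genes. The lists share 9 genes, each of which stands in 2 lists and is counted in both. The single genes named next were chosen after their values were seen. The lowest adjusted p of the lists in that comparison belonged to Igfbp4, an IGF-binding protein also known to block Frizzled and Lrp6, with a difference of 2.74 (1.45 to 4.04, adjusted p = 0.0823). Wisp2, a target gene, differed by -1.23 (-1.89 to -0.57, adjusted p = 0.109), and Btrc, which marks β-catenin for degradation, by -0.88 (-1.38 to -0.38, adjusted p = 0.128). In HF20 against HFC the lists reached the unadjusted bound with 0 of 5, 3 of 11, 1 of 7, 1 of 20, 2 of 11 and 5 of 16 genes in the same order, beside 11.4% of all genes, and the median difference of the target genes was -0.59, against 0.39 in HF75. The names Wls, Draxin, Amer1 and Tcf7l1 were not found among the symbols.

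The genes also share features of position and sequence. In the reference annotation 4 pairs of them are next to each other: Wnt6 with Wnt10a on chromosome 1, Wnt3a with Wnt9a and Wnt9b with Wnt3 on chromosome 11, and Wnt10b with Wnt1 on chromosome 15. The promoter table of RefSeq (GRCm38.p6) held 29 promoters of 26 of the genes, each 300 bases long. GGGCGG, the core of the GC box, occurred on either strand in 22 of these 29, and in 35.7% of all 32851 promoters. CTTTGA, the core bound by Tcf and Lef factors, occurred in 4 of the 29 and in 16.0% of all promoters. The promoters of Wnt6 and Fzd10 are shown because these genes were low on many of the same arrays. Capitals mark GGGCGG or its reverse complement CCGCCC, of which Wnt6 held 6 and Fzd10 held 1, and neither held CTTTGA. The bases G and C made up 76.7% and 77.7% of them, against a median of 52.7% over all promoters. A match describes the letters and is no measurement of binding.
Wnt6, chromosome 1, 74771642 to 74771941, plus strand: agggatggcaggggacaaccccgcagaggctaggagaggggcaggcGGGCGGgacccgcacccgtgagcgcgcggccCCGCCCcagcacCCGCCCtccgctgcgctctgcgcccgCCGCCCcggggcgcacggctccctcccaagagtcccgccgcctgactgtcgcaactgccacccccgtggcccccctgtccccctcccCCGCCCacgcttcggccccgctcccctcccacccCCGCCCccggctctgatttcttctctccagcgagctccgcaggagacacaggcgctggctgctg
Fzd10, chromosome 5, 128600856 to 128601155, plus strand: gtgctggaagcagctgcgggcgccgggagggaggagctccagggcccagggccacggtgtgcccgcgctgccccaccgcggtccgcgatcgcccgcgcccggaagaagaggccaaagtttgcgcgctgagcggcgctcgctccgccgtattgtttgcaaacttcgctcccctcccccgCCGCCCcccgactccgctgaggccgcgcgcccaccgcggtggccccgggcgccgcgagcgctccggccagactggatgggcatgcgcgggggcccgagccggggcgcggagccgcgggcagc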

How the data were processed

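RNA of 40 samples of subcutaneous cells was measured on single-colour Agilent arrays with 40628 probes. The deposited intensities are processed signals that, per the file headers, Agilent Feature Extraction 10.5.1.1 had background-subtracted and corrected for spatial trends within each array; the submitters' processing notes name version 9.1. From the deposited table, in which the authors set each array as a log2 fold change beside LFC at its time point, only the gene names and the annotation of the probes were taken.

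The log2 intensity minus the log2 of the array's 75th percentile was raised to the array's lowest level well above background, and outlier spots were dropped. Of several probes for a symbol, that with the highest mean over 38 arrays was used. Genes well above background on a share of at least 0.5 of the arrays of either group were tested with limma 3.58.1 in R 4.3.3, with Benjamini-Hochberg adjustment over all genes tested and a threshold of 0.05. Files were read with version 1.17.8 of data.table, Python 3.11.15, numpy 2.4.6 and pandas 2.3.3, and figures drawn with matplotlib 3.10.9. The fit was tested on simulated data.

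Diets were paired by the time label, which entered as a block and comes from the labels; arrays sharing a time are not stated to come from the same animals. Late against early took the time label as a random block, with a correlation of 0.203 that was kept in its alternatives. The week 9 comparison had the diet as a block. The 2 arrays with conflicting labels were left out. The number of arrays limits the precision.

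The members and the lists of pathway and marker genes were chosen with earlier results of these data known. Members past the threshold were to be given array by array, others measured on at least 19 arrays by range and differences, and the rest by name and number of arrays; of the pathway lists, the genes past the threshold. Since 0 members passed, those with an unadjusted p under 0.05 in limma are also given array by array, a choice made after their values were seen. Alternatives covered background correction (normexp, offset 50), quantile normalization, filter, floor, array weights, probes, block, slide and single time labels.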

Additional observations from a re-analysis of the deposited data

Results flagged for a closer look

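In HF5, HF20 and HF75, each with 5 or 6 arrays, the levels of members measured on all arrays of the group were searched for 1 far from the others. Of 64 such sets of levels, 6 had such a level. For independent sets chance gives about 1 in 20, but these sets share arrays and are not independent. The share over all genes was not computed, so the count shows no excess particular to the members. The HF5 array of week 3 was far below the other HF5 arrays for Fzd1 (-3.05) and Lrp5 (-2.36). Sfrp1 at week 6 stood above the other weeks in HF20 (2.21) and in HF75 (2.32), as did Wnt5b at week 6 in HF5 (0.68). Lrp5 was high on the HF20 array of week 9 (1.88). What set these arrays apart was not tested.

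Of the 2 arrays with conflicting labels, the 1 whose title says HF75 had levels of Wnt2b (-4.01) and Wnt3a (-4.06) above their highest levels on those of the 38 arrays used that measured them, 9 and 1 arrays, which were -4.66 and -5.31. The array titled HF75 had 21710 outlier spots, 98.1% of probes well above background and a signal 48.5 times its background, and 21 of the 40 genes were dropped from it. On the LFC array of week 3, which measured neither gene, they stood at -0.03 and 1.25. The part of the scan in these levels was not tested.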

How the results depend on the processing

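The 28 differences of single members with an unadjusted p under 0.05 in limma were recomputed under 407 alternatives in all. The direction and the side of the threshold were kept in 388 of them, 16 moved a difference past the threshold, and 3 reversed a sign. Of these 3, 1 came from normexp and 2 from the other probes of Fzd7 and Wnt5a, of which that of Wnt5a did not pass the filter in HF75, so that its sign (-0.45 between group means) rests on levels near background and is no test. The 16 came from array weights (13), normexp background correction (1), leaving out 1 time (1) and leaving out week 9 (1), which for HF75 is the same fit. All 28 differences had been chosen by their unadjusted p and lay on the failing side of the threshold. Of the 407, 146 were leave-one-out fits on most of the same arrays. The count of 388 is therefore no measure of how robust the differences are.

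Normexp background correction reversed Wif1 in HF20 (-0.28). It moved the median difference of the members to -0.38 in HF75 and to -0.20 at week 9, and gave 1 member called in HF75. It also moved that median from 0.46 to 1.71 in the difference between diets in time, from -0.41 to -0.85 in HF20, from -0.20 to -0.51 in HF5 and from -0.02 to -0.42 in late against early. The members at an unadjusted p under 0.05 in limma went from 2 to 15 in the difference between diets in time (all genes 4.92% to 36%), from 7 to 16 in HF20 (11.4% to 29.9%), from 1 to 3 in HF5 (5.11% to 25.4%) and from 11 to 5 in HF75 (14.4% to 8.45%). It also shifted the median of all genes to -0.23 in HF5, -0.34 in HF20, -0.17 in HF75, -0.18 in late against early and 0.52 in the difference between diets in time, and quantile normalization shifted it to 0.23 in late against early. Of all genes called in HF75, 189 were higher and 38 lower, against 198 and 8 after normexp. The cause was not tested.

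With array weights 6 members were called in HF75 and 15 at week 9. Of the 6, Wnt10b entered the test through the HFC arrays alone and Wif1 through the HF75 arrays alone. The members at an unadjusted p under 0.05 in limma went from 0 to 8 of 30 in HFC against LFC (all genes 2.92% to 6.13%). They went from 1 to 6 of 32 in HF5 (5.11% to 11.3%) and from 7 to 6 of 31 in HF20 (11.4% to 7.04%). The calls among all genes were 1227 (5.94%) in HF75 against 227 without weights, 8578 (38.6%) at week 9 against 0 and 6 in late against early against 0. The cause was not tested.

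Leaving out 1 time at a time, the members called in HF75 were 0 to 1, and 1 without the week 9 arrays, where Wnt5a passed with 2.70. All genes called there ranged from 0 without week 3 to 147 without week 9, on fewer arrays. The HF20 median of the members ranged from -0.44 without week 6 to 0.11 without week 12. In each leave-one-out fit of the other 6 comparisons 0 members were called in limma, with 0 to 8 at an unadjusted p under 0.05, beside 1.78% to 18.4% of all genes. On only the 4 labels that share a slide, the HFC against LFC median of the members was -0.35 beside -0.33 for all genes, and without day 14 and week 3 it was 0.69. Quantile normalization gave a member median of 0.39 in late against early and 0.02 in HFC against LFC. With no filter the member medians were 0.20 in HF75, -0.10 in HF20 and 0.06 in HFC against LFC. Array weights gave -0.20 in HF20 and -0.02 in HF5.

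Without the time block, 0 members (8 at an unadjusted p under 0.05 in limma, beside 12.5% of all genes) and 0 of all genes were called in HF75, and 1 gene in late against early. Of the comparisons refitted without it, the block changed no other call. Paired weeks scanned on 1 day, an alternative chosen after seeing the data, left 2 pairs and 0 genes called in HF75 in limma, with 4 of 33 members at an unadjusted p under 0.05, beside 5.27% of all genes. A random slide effect in place of the time label, also chosen after seeing the data, gave 1 gene in late against early. The planned slide effect with the time label kept could not be fitted there and was not run. Taking weeks 3 to 15 other than 9 as the reference for week 9 without the LFC array of week 3, also chosen later, gave 3 genes called and 0 members in limma, 6 of them at an unadjusted p under 0.05, beside 24.5% of all genes.

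The other probe of Fzd7, chosen after seeing the data, gave an HF75 difference of -0.95 and was measured on 2 of 5 HF75 arrays, so its size rests in part on levels below background. The cause was not tested.

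The number of arrays limits the precision. Signal over background ranged from 1.53 on the LFC array of week 3 to 55.4 on the LFC array of day 14, and 9 members were measured on too few arrays for most tests.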

Other observations

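The 2 arrays of week 18 that name HF20 in one label and HF75 in another entered no comparison. On the 1 titled HF20, 32 of the 40 genes were measured, with Fzd7 at 0.63, Wnt5a at -2.42, Wnt6 at 1.47, Wnt10a at -1.16, Wnt10b at -4.83, Wif1 at -4.98, Sfrp2 at 2.10 and Sfrp4 at 1.94. On the 1 titled HF75, Wnt5a stood at 1.19, Wnt6 at -0.56, Wnt10a at -3.29, Sfrp2 at -0.85 and Sfrp4 at -0.63, and Fzd7, Wnt10b and Wif1 were among the dropped spots.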
